A study of Drosophila melanogaster with 16 samples.

Results

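Neuropeptides are cut out of longer precursors inside dense-core vesicles, trimmed, and in many cases amidated before release. The 9 genes described here encode steps of that route in Drosophila melanogaster: the prohormone convertase amon, its helper 7B2, the carboxypeptidase svr, the amidating enzymes Phm, Pal1 and Pal2, the vesicle membrane protein IA-2, the vesicle priming factor Cadps, and dimm, a transcription factor of neurosecretory cells. They were taken as every exon entry whose gene ID carries one of these FlyBase symbols, which gave 112 of the 87508 exon entries and 9 of the 17753 genes. IA-2 was selected on its TRAP signal, because its last exon is the most abundant entry of most TRAP libraries. Its levels in TRAP are therefore given as a description without a test, and counts of calls that use TRAP libraries cover the other 8 genes.

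The study profiled heads of flies aged 10 to 12 days by RNA-seq in 4 groups of 4 libraries. Male TRAP and female TRAP libraries held mRNA bound to ribosomes that carry GFP-tagged RpL10A, expressed from a UAS transgene under fru P1-Gal4, while male total mRNA and female total mRNA libraries held mRNA of the head lysate before the pull-down. Flies of all groups carried the same alleles: a P[w+mC, UAS-Gal4] insertion over the ribosome tag, P[w+mC, UAS-GFP::RpL10A], together with fru P1-Gal4/+. Each library came from a large pool of flies of 1 sex. The driver marks all fru P1-expressing cells of the head together, so no single type of fru P1 neuron is resolved. Nothing in the labels says that replicates of a group came from separate cultures, so p-values measure the spread between these pools. Values below follow the replicate numbers of the labels, which are 1, 2, 4 and 5 in male TRAP, 1 to 4 in male total mRNA, and 2 to 5 in both female groups.

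Counts summed to between 15353672 and 25419045 per library, and a count of 0 would allow at most 0.118 to 0.195 CPM. Each gene is represented by its lead exon, the entry with the highest mean CPM over the 16 libraries. Among cell type markers, the lead exon was called higher in TRAP for 7 of 8 neuronal genes in males and for 8 of 8 in females. As background for these marker counts, the male comparison called 38.3% of all tested lead exons higher in TRAP and 30.5% lower. The female comparison called 52.1% higher and 31.3% lower. Summed neuronal marker levels ranged over 2376 to 2901 CPM in male TRAP against 1194 to 1955 CPM in male total mRNA, and over 2264 to 3450.0 CPM in female TRAP against 1022 to 1439 CPM in female total mRNA. None of the glial, photoreceptor or fat body genes was called higher in TRAP. Those called lower were 8 of 8 glial, 8 of 8 photoreceptor, 4 of 7 fat body and 5 of 7 muscle genes in males, and 7 of 7, 8 of 8, 7 of 7 and 5 of 7 in females, where the muscle gene sls was higher. Fat body Fbp1 and muscle Act88F lay below 1 CPM in all groups. Where bulk heads of the sexes are compared, fewer cells of a type and less RNA per cell cannot be told apart.

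Libraries also differed in how strongly reads gathered at the 3' ends of genes. Over 1821 genes with at least 3 well covered exons, the median log2 ratio of the last to the first exon, per kb, was 0.83, 0.98, 0.72 and 0.77 in male TRAP and 0.49, 0.86, 1.18 and 0.57 in male total mRNA. It was 0.79, 0.79, 1.17 and 1.11 in female TRAP, against 0.46, 0.59, 0.66 and 0.72 in female total mRNA. TRAP was thus more 3' weighted than total mRNA in every female library, whereas in males the most 3' weighted library was total mRNA replicate 3. The part of this weighting in the exon results below was not tested.

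In both sexes the first steps of precursor processing were TRAP-enriched. The gene amon encodes the fly counterpart of vertebrate prohormone convertase 2, which cleaves precursors at pairs of basic residues. Its lead exon, the last coding exon with the 3' UTR (3R:26697697-26699448), had 131.3, 118.9, 104.1 and 94.6 normalised CPM in male TRAP, against 31.9, 53.5, 61.1 and 36.4 in male total mRNA. Female TRAP libraries had 104.9, 83.5, 103.3 and 122.6 CPM, against 26.6, 33.6, 26.7 and 34.0 CPM in female total mRNA. Every TRAP library exceeded every total mRNA library in both sexes. The log2 fold change was 1.29 ± 0.23 (SE) in males (edgeR exact test, FDR = 6.64e-07) and 1.88 ± 0.16 in females (FDR = 3.32e-24).

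The convertase helper 7B2, which vertebrate prohormone convertase 2 needs for its maturation, was the most strongly enriched of the 7 genes with a TRAP test. Its lead exon (3R:5376999-5377975, coding and 3' UTR) had 255, 268, 253 and 162 CPM in male TRAP, against 87.3, 70.5, 59.5 and 52.0 CPM in male total mRNA. In females it had 219, 179.5, 265 and 269 CPM in TRAP and 49.8, 51.2, 50.9 and 63.8 CPM in total mRNA. Groups did not overlap in either sex, although male TRAP replicate 5 was far below the other male TRAP libraries. The log2 fold change was 1.81 ± 0.22 in males (edgeR FDR = 4.29e-13) and 2.21 ± 0.16 in females (FDR = 1.91e-32).

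**Figure D1:**
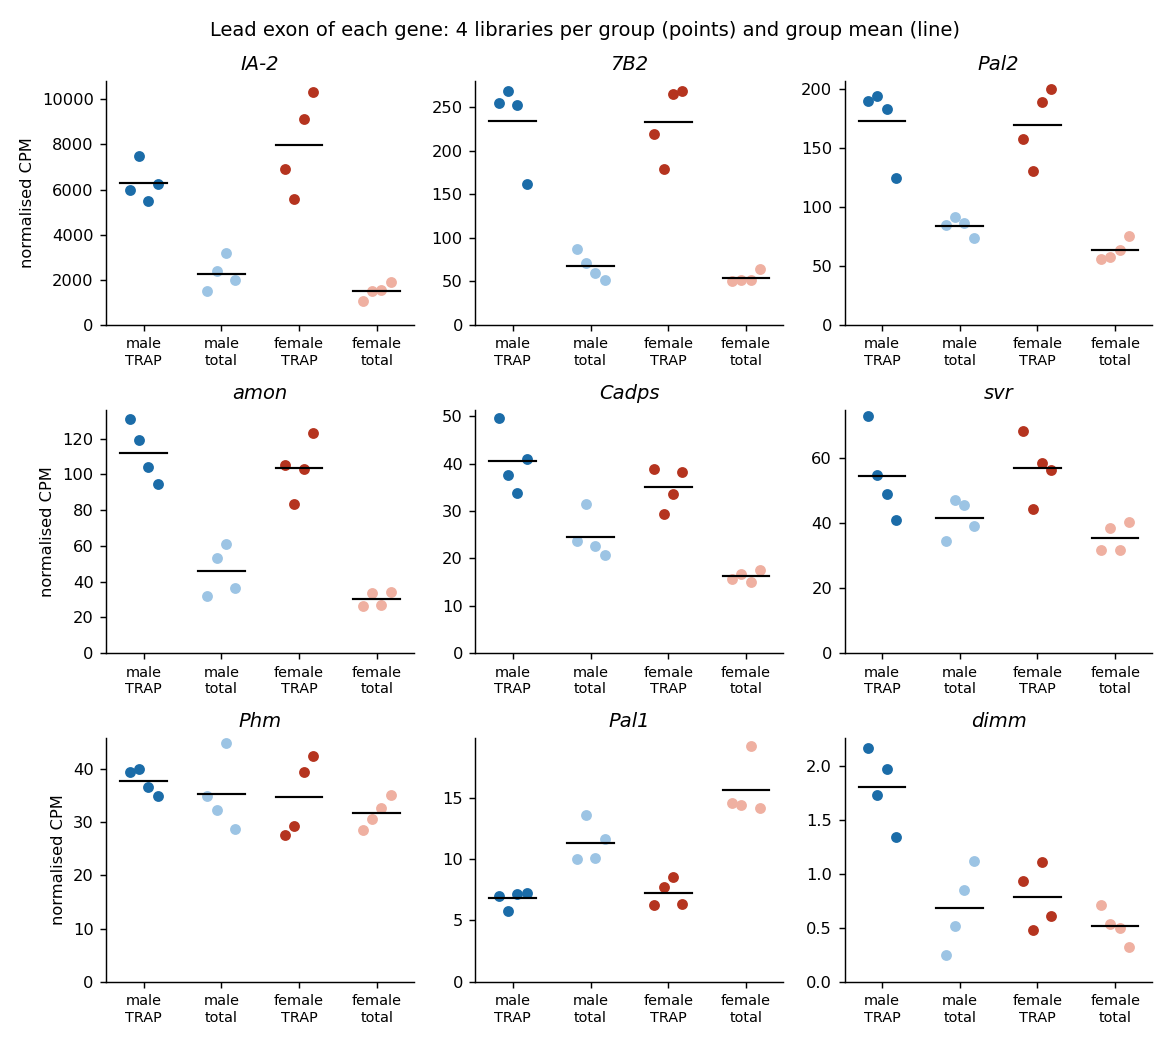
Normalised CPM (y axis, linear, from 0) of the lead exon of each of the 9 genes in the 16 libraries. Points are libraries, lines are group means of 4. TRAP lies above total mRNA without overlap in both sexes for 7B2, Pal2, amon and Cadps, and below it for Pal1. TRAP also lies above total mRNA for IA-2, which is shown as description because it was chosen for its TRAP level.

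After cleavage, carboxypeptidases remove the basic residues left at the peptide's end. The gene svr (silver) encodes the fly carboxypeptidase D, and its transcripts end in alternative last exons. The lead exon is the end of the short transcripts (X:502836-504319, coding and 3' UTR). It had 73.0, 55.0, 48.9 and 41.1 CPM in male TRAP against 34.6, 47.1, 45.8 and 39.1 CPM in male total mRNA, and the groups overlapped. In females it had 68.3, 44.5, 58.7 and 56.3 CPM in TRAP and 31.7, 38.5, 31.7 and 40.5 CPM in total mRNA, without overlap. The log2 fold change was 0.79 ± 0.17 in females (edgeR FDR = 5.18e-05) and 0.39 ± 0.20 in males (FDR = 0.133). The gene sum added the reads of every svr entry with a distinct interval, so reads in overlapping entries entered more than once. This sum was called lower in female TRAP, at -0.31 (edgeR FDR = 0.0429), and was at -0.03 in males (FDR = 0.901). The entry X:506599-509072 shares bases with 4 other svr entries, and the lead exon with 1. The part of this overlap in the lower sum was not tested. The male call of the lead exon was lost without male TRAP replicate 1 (0.22), male total mRNA replicate 1 (0.29) or male total mRNA replicate 4 (0.34).

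The end of the long svr transcripts moved the other way. The exon at X:506599-509072 had 12.7, 10.1, 9.07 and 15.8 CPM in male TRAP against 12.5, 21.0, 18.2 and 19.0 CPM in male total mRNA. In females it had 10.1, 12.1, 11.7 and 12.5 CPM in TRAP and 24.6, 21.3, 22.8 and 24.2 CPM in total mRNA. It was lower in TRAP by a log2 fold change of -0.57 ± 0.21 in males, with overlapping groups (edgeR FDR = 0.0303), and -0.89 ± 0.13 in females, without overlap (FDR = 1.57e-07). Library totals as the only scaling kept the direction but took the male exon out of the call (-0.28, FDR = 0.304). Among all tested svr exons the largest fall was -1.15 in females, at X:504916-506242, and -0.62 in males, at X:507869-509072. The call of the last of these was lost without male TRAP replicate 4 (-0.45) or male total mRNA replicate 2 (-0.47).

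A ratio of reads within one gene does not depend on the scaling between libraries. After these values were seen, reads of the short end that no long transcript shares (X:502937-504319) were divided by those of the long end in each library. The ratio was 5.40, 5.22, 4.99 and 2.45 in male TRAP, against 2.43, 2.10, 2.44 and 1.89 in male total mRNA. It was 6.30, 3.46, 4.85 and 4.33 in female TRAP, against 1.11, 1.67, 1.25 and 1.5 in female total mRNA. The short end thus took a larger share in every TRAP library, though male TRAP replicate 5 lay only just above the male total mRNA libraries. The difference was 0.97 on the log2 scale in males and 1.76 in females. An exact two-sided permutation test gave p = 0.0286 in each sex, the smallest that 4 against 4 libraries can give, and 0.114 after Benjamini-Hochberg adjustment over the 28 ratio tests. Leaving out any 1 library kept the difference between 0.86 and 1.24 in males and between 1.61 and 1.90 in females.

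**Figure D2:**
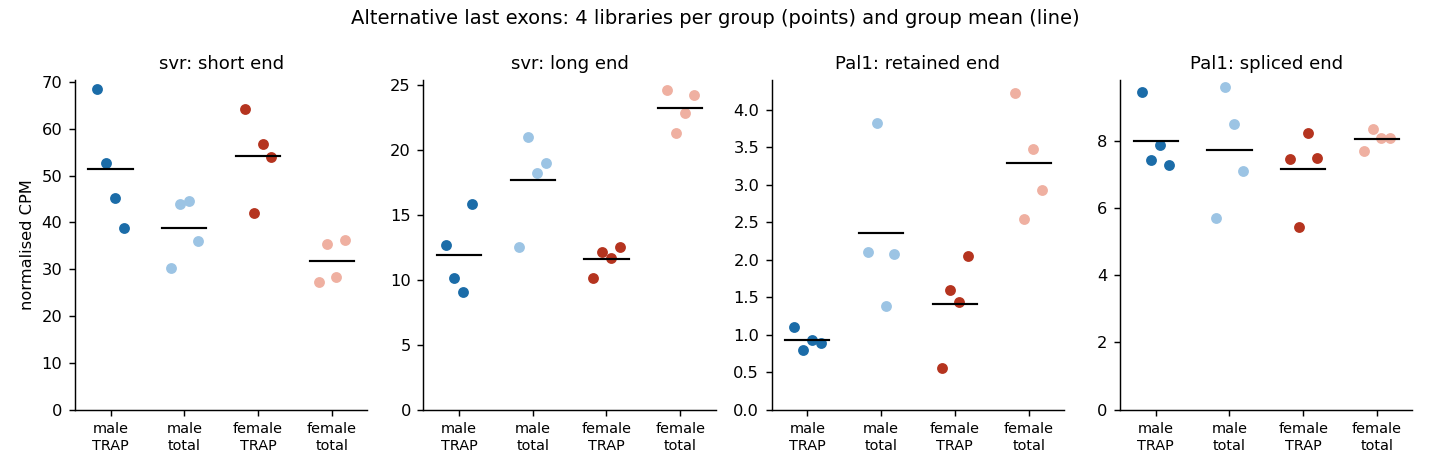
Normalised CPM (y axis, from 0) of the alternative last exons of svr and Pal1 in the 16 libraries, with group means of 4 as lines. The svr short end averaged 54.2 CPM in female TRAP, against 31.8 CPM in female total mRNA, while the long end averaged 11.6 CPM in female TRAP, against 23.2 CPM in female total mRNA.

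Amidation takes 2 enzymes in flies, encoded by separate genes, whereas vertebrates join both activities in 1 protein. Phm, a copper enzyme, hydroxylates the terminal glycine of the peptide. Its lead exon (2R:23985175-23985695, coding and 3' UTR) had 39.4, 40.1, 36.7 and 34.9 CPM in male TRAP, against 35.0, 32.4, 45.0 and 28.8 CPM in male total mRNA. In females it had 27.7, 29.3, 39.5 and 42.5 CPM in TRAP and 28.5, 30.7, 32.6 and 35.1 CPM in total mRNA. TRAP and total mRNA overlapped in both sexes, and neither difference was called at 0.10 ± 0.18 in males (edgeR FDR = 0.724) and 0.23 ± 0.15 in females (FDR = 0.235). The female result lay near the threshold. It was called higher in TRAP by the edgeR quasi-likelihood test without a block (0.23, FDR = 0.184). The same test called it with the replicate number, treated as pairing the female libraries, as a block (0.22, FDR = 0.0834). It was also called with no filter (0.43, FDR = 0.0714), with library totals (0.63, FDR = 0.000262), and without female TRAP replicate 2 (0.33) or 3 (0.28). In males library totals called it (0.41, FDR = 0.0508). The first Phm exon (2R:23988114-23988455) was lower in TRAP, at -0.64 in males (edgeR FDR = 0.0141) and -0.45 in females (FDR = 0.105). The female call was lost without female TRAP replicate 3 (-0.37), female TRAP replicate 5 (-0.39) or female total mRNA replicate 4 (-0.36).

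Pal2 and Pal1 both encode lyases that complete amidation, and they differed in direction. The Pal2 lead exon (2R:23689670-23690838, coding and 3' UTR) had 189.9, 194, 183 and 125 CPM in male TRAP, against 85.0, 91.7, 86.2 and 73.4 CPM in male total mRNA. In female TRAP it had 158, 131, 189 and 199.9 CPM, against 56.3, 57.3, 63.9 and 75.1 CPM in female total mRNA. TRAP and total mRNA did not overlap in either sex, with male TRAP replicate 5 lowest among the TRAP libraries. The log2 fold change was 1.05 ± 0.20 in males (edgeR FDR = 3.38e-06) and 1.53 ± 0.16 in females (FDR = 2.71e-16). This exon shares bases with CG30183 on the opposite strand, and since counting did not use strand, reads of both genes cannot be told apart there. All 9 Pal2 exons were called higher in TRAP in both sexes, including the first exons at 0.53 in males and 0.45 in females, which no other gene overlaps.

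Annotated Pal2 transcripts stop at 3 points of the last exon. Up to the nearest stop, the exon held 194 CPM per kb in male TRAP, against 93.0 in male total mRNA, and 184 in female TRAP, against 73.2 in female total mRNA. The stretch to the middle stop (2R:23690304-23690584) held 166 CPM per kb in male TRAP, against 84.5 in male total mRNA, and 177 in female TRAP, against 56.0 in female total mRNA. Beyond it, the level was 11.6 and 5.53 CPM per kb in male TRAP and male total mRNA, and 12.0 and 3.99 in female TRAP and female total mRNA. Nearly all Pal2 signal therefore lay before the middle stop in all 4 groups.

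The Pal1 lead exon (2R:9962226-9963031, coding and 3' UTR) had 6.98, 5.75, 7.16 and 7.26 CPM in male TRAP, against 10.0, 13.6, 10.1 and 11.6 CPM in male total mRNA. Female TRAP had 6.25, 7.73, 8.56 and 6.31 CPM, against 14.6, 14.4, 19.2 and 14.2 CPM in female total mRNA. Every TRAP library was below every total mRNA library. Its log2 fold change was -0.74 ± 0.19 in males (edgeR FDR = 0.00103) and -1.0 ± 0.16 in females (FDR = 5.42e-07), and both stayed negative with library totals as the scaling (-0.45 and -0.59).

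The spliced last exon of Pal1 (2R:9963198-9963853) behaved differently. It had 9.44, 7.41, 7.86 and 7.26 CPM in male TRAP, against 5.71, 9.60, 8.48 and 7.10 CPM in male total mRNA. Female TRAP libraries had 7.45, 5.43, 8.22 and 7.47 CPM, against 7.68, 8.33, 8.09 and 8.09 CPM in female total mRNA. Groups overlapped, and neither 0.05 in males (edgeR FDR = 0.88) nor -0.06 in females (FDR = 0.803) was called. Its end shares bases with CG1418 on the opposite strand, which was counted without strand.

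The other Pal1 end, where the transcript runs on past the splice site (2R:9962661-9963031), was rarer. Reads of this retained end per read of the spliced end came to 0.119, 0.11, 0.121 and 0.125 in male TRAP, against 0.372, 0.4, 0.167 and 0.294 in male total mRNA. The ratio was 0.0777, 0.298, 0.178 and 0.277 in female TRAP and 0.551, 0.308, 0.433 and 0.365 in female total mRNA. It was lower in every TRAP library of a sex, by -1.30 and -1.14 on the log2 scale in males and females (exact permutation p = 0.0286 each, the smallest possible, and 0.114 adjusted over the 28 tests). These ratios rest on 15 to 89 reads of the retained end per library. Without female TRAP replicate 2 the female difference was -0.72.

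IA-2 belongs to the receptor tyrosine phosphatase family of dense-core vesicle membrane proteins, known in vertebrates as a diabetes autoantigen of islet cells. Its last exon (2L:1008378-1014484, coding and 3' UTR) had the highest count of all entries in 5 of 8 TRAP libraries, and ranked between 1 and 3 in all 8. In male total mRNA it ranked between 13 and 50, and in female total mRNA between 60 and 138. The exon had 5977, 7499.6, 5490.4 and 6235 CPM in male TRAP, against 1521, 2390.1, 3166 and 1979.8 CPM in male total mRNA. It had 6909, 5570.4, 9141 and 10348 CPM in female TRAP, against 1053, 1496, 1527 and 1884 CPM in female total mRNA. Just outside first place were male TRAP replicate 5, at 153827 reads against 168187 for lncRNA:noe, and female TRAP replicates 3 and 4, led by Yp1. Its log2 fold change was 1.47 ± 0.25 in males and 2.52 ± 0.24 in females, given as description since the exon was chosen for its TRAP level.

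Most IA-2 reads fell in this last exon rather than across the gene. In male TRAP the part up to the nearer annotated end held 1092 CPM per kb and the part beyond it (2L:1008378-1011420) 971 CPM per kb, whereas the longest coding exon (2L:1016139-1017641) held 228. Male total mRNA had 388, 354 and 146 CPM per kb in the same parts. Female TRAP had 1401, 1216 and 229.6 CPM per kb, against 249.8, 238 and 109 in female total mRNA. The longest coding exon held 285, 294, 381 and 408 CPM in male TRAP and 266, 206, 121 and 285 CPM in male total mRNA, so the lowest TRAP value met the highest total mRNA value. In females it held 548, 337, 204 and 292 CPM in TRAP and 185, 206, 126 and 138 CPM in total mRNA, also with overlap.

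The last exon and the longest coding exon of IA-2 ranked libraries differently. Male total mRNA replicate 3 was highest of its group in the last exon and lowest in the longest coding exon. The log2 ratio of last exon to longest coding exon was 4.70 there, against 2.52 to 3.53 in the other male total mRNA libraries, and this replicate also had the largest 3' weight over all genes. Female TRAP replicates 4 and 5, with IA-2 ratios of 5.49 and 5.15, had the largest 3' weights of their group.

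Cadps (CAPS) primes dense-core vesicles for release. Its lead exon, the last one (4:1270925-1271759, coding and 3' UTR), had 49.7, 37.7, 33.9 and 41.0 CPM in male TRAP, against 23.6, 31.4, 22.7 and 20.8 CPM in male total mRNA. In female TRAP it had 38.9, 29.4, 33.6 and 38.2 CPM, against 15.6, 16.8, 15.0 and 17.6 CPM in female total mRNA. Groups did not overlap in either sex. Its log2 fold change was 0.72 ± 0.19 in males (edgeR FDR = 0.00188) and 1.22 ± 0.15 in females (FDR = 1.22e-11).

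The bHLH factor dimm directs the secretory program of peptidergic cells. All 5 of its exon entries fell below the expression filter in each comparison. The longest, its lead exon (2L:21339349-21342155, coding and 3' UTR), had 51, 50, 59 and 33 reads in male TRAP, against 6, 12, 14 and 28 reads in male total mRNA. It had 25, 9, 20 and 11 reads in female TRAP and 14, 10, 8 and 5 reads in female total mRNA. Male TRAP averaged 1.80 ± 0.354 CPM and male total mRNA 0.683 ± 0.38 CPM (SD, n = 4 each), and all 4 male TRAP libraries were above the male total mRNA libraries. Female TRAP averaged 0.784 ± 0.291 CPM and female total mRNA 0.515 ± 0.161 CPM (SD, n = 4 each), with overlap. An exact two-sided permutation test, chosen after the values were seen, gave p = 0.0286 for male TRAP against male total mRNA and for male against female TRAP, the smallest possible, and 0.0572 adjusted over 4 comparisons. For females p was 0.2. Without the filter, the edgeR exact test gave a log2 fold change of 1.60 in males (FDR = 0.000606) and 0.91 in females (FDR = 0.0716).

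**Figure D3:**
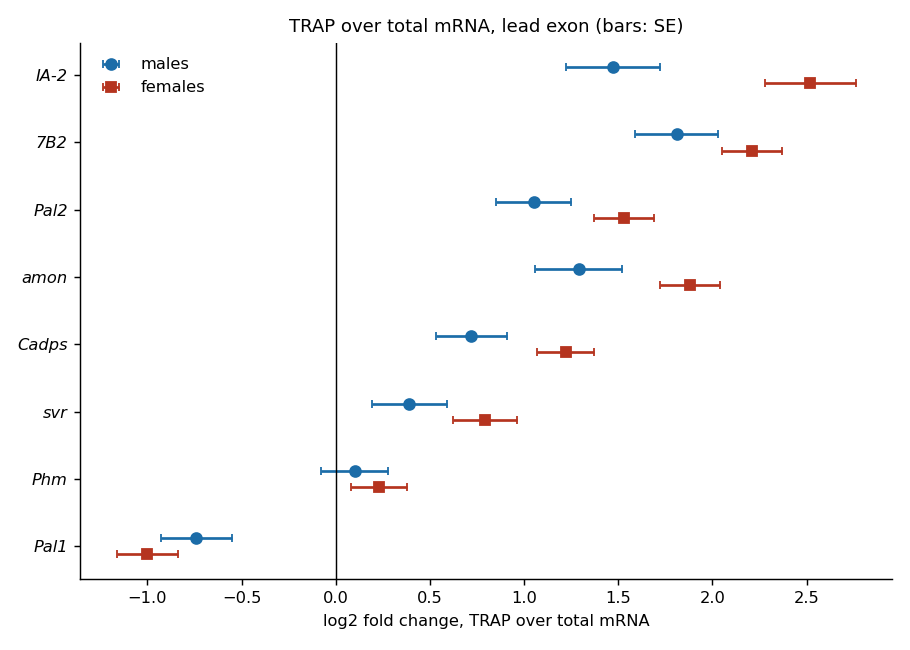
Log2 fold change of TRAP over total mRNA (x axis) for the lead exon of 8 genes, in males (circles) and females (squares), with the SE as bars. The values run from -0.74 for Pal1 to 1.81 for 7B2 among tested genes in males and from -1.0 to 2.21 in females, with IA-2 at 1.47 and 2.52 shown as description. The gene dimm was below the filter.

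Over the 8 genes other than IA-2, 62 of 96 exon entries were tested in males. Of these, 30 were called higher in male TRAP, where 31.4% of all tested exons were, and 9 were called lower, where 29.6% were. In females 54 were tested, with 28 higher beside a background of 40.5%, and 15 lower beside 36.8%. By gene, lead exons of 5 of 7 tested genes were called higher in each sex (amon, 7B2, Pal2, Cadps and svr), beside 38.3% of all lead exons in males and 52.1% in females. The lead exon of Pal1 was called lower in each sex, beside 30.5% and 31.3% of all. The median log2 fold change of the member lead exons was 0.72 in males and 1.22 in females, against 0.14 and 0.33 for all lead exons. General neuronal markers had medians of 0.78 and 1.45, above those of the member genes, and the part of this in the member results was not tested. With gene sums in place of lead exons, 4 members were called higher in each sex, and 1 was called lower in males and 2 in females, where svr was among the lower genes. These sums count reads of overlapping entries more than once. The threshold FDR of 0.2 reached unadjusted p-values of 0.122 in males and 0.154 in females. At FDR under 0.05, 18 exons were called higher and 5 lower in males.

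The called exons were distributed unevenly over the genes. Called higher were all 3 tested 7B2 exons in males and both in females, all 9 Pal2 exons in each sex, 5 of 6 and 4 of 4 amon exons in males and females, and 12 of 18 and 12 of 14 Cadps exons. For svr, 1 of 13 exons was higher in each sex, while 5 were lower in males and 10 in females. For Pal1, 3 of 4 and 4 of 5 were lower, and for Phm 1 of 9 and 1 of 7. Entries of a gene can overlap or repeat, since 39 of the 112 share bases with another entry of the same gene, so they are not independent.

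TRAP enrichment was larger toward the 3' end of several genes. In amon, log2 fold changes ran between 0.33 at the first tested exon (3R:26700812-26700987) and 1.29 at the last in males, and between 0.79 and 1.88 in females. In Pal2 they ran between 0.53 at the first exon and 1.07 within the last in males, and between 0.45 and 1.53 in females. Cadps ran between 0.34 and 0.79 in males, and between 0.22 and 1.22 in females. In females the 2 exons nearest the 3' end were highest, whereas in males the last exon (0.72) lay below both exons before it (0.75 and 0.79). In IA-2, male values did not increase throughout: the first tested exon (2L:1046810-1047022) was at 1.01, the lowest at 0.49 (2L:1017711-1017768) and the last at 1.49. Female IA-2 values lay between 0.98 at the first tested exon (2L:1042964-1043218) and 2.58 in the last. From first to last tested exon, Phm went from -0.64 to 0.10 in males and from -0.45 to 0.22 in females. Pal1 went from -0.57 to 0.05 in males and from -0.92 to -0.06 in females, and 7B2 from 1.11 to 1.81 in males. By contrast svr fell, from 0.11 to -0.47 in males and from -0.76 to -0.88 in females.

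This 3' pattern was a property of many genes. Among genes with at least 3 tested exons, the last exon had a higher log2 fold change than the first in 2871 of 4510 genes in males (63.7%) and in 3369 of 4190 in females (80.4%), with median differences of 0.15 and 0.44. The ratio of lead-exon to upstream reads was higher in TRAP by 0.63 on the log2 scale in males and 1.13 in females for amon, and by 0.64 and 1.01 for 7B2. TRAP and total mRNA did not overlap for this ratio in females (exact permutation p = 0.0286, 0.114 adjusted over 28 tests for both genes), and overlapped in males (amon p = 0.229, 7B2 p = 0.0571, exact permutation). For Cadps, Pal2 and Phm the ratios overlapped in both sexes, with exact permutation p-values between 0.0857 and 0.514. Within the 4 female pairs of same-numbered libraries, however, the ratio was higher in TRAP in 4 of 4 for Pal2 (differences of 0.63 to 0.79) and for Phm (0.11 to 0.49), and in 3 of 4 for Cadps (-0.03 to 0.88). An exact sign-flip permutation test over 4 pairs cannot give a p below 0.125, and this comparison was chosen after the values were seen. For amon, 7B2 and the svr and Pal1 end ratios the female groups did not overlap. Any pairing of those libraries gives 1 direction, so the pairs add nothing there.

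**Figure D4:**
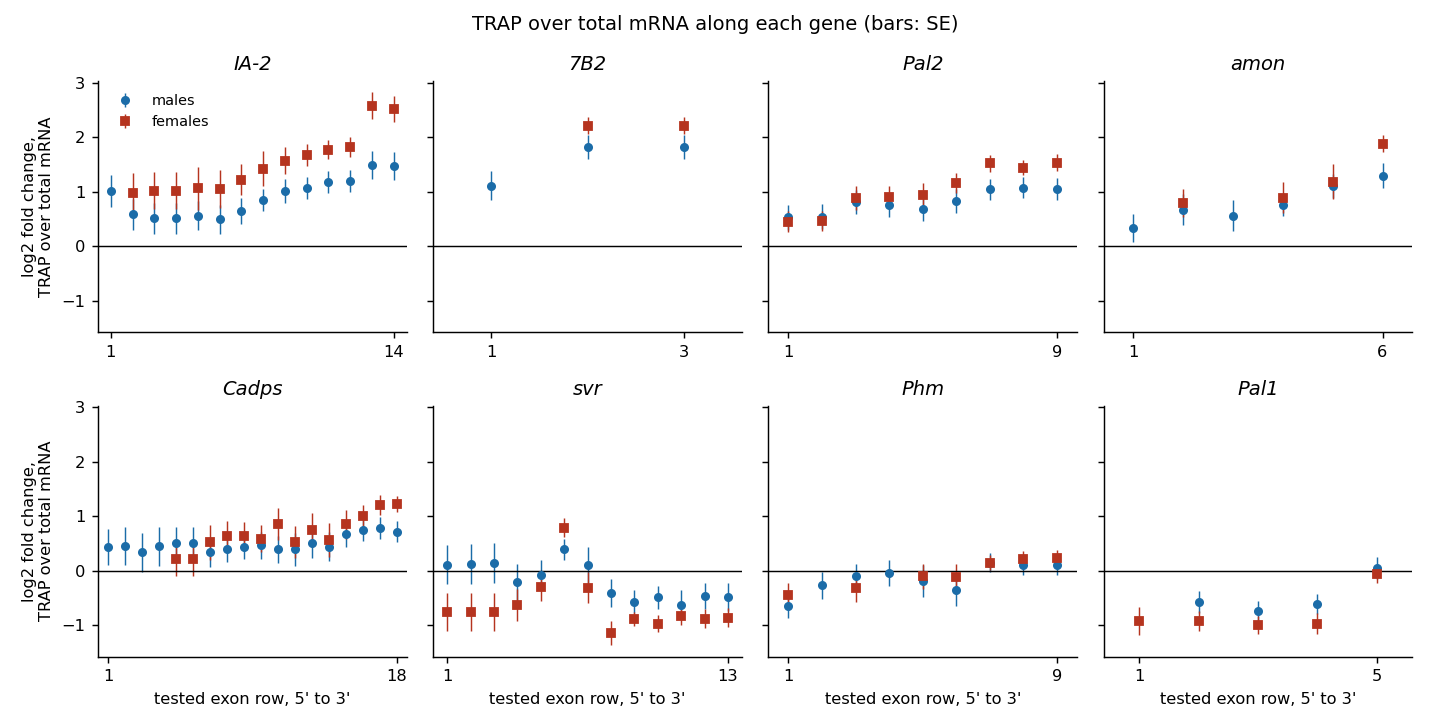
Log2 fold change of TRAP over total mRNA (y axis, bars SE) for every tested exon entry of 8 genes, ordered 5' to 3' on the x axis, in males (circles) and females (squares). Values at the 3' end exceed those of the first tested exon in IA-2, amon, Pal2, Cadps, Phm and Pal1 in both sexes, and in 7B2 in males. In males IA-2 has 1.01 at its first tested exon and 0.49 further on. The last svr value lies below the first, and svr has 1 exon above 0 in both sexes, the short end. The spliced end of Pal1 lies near 0.

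Levels per kb of lead exon ordered the genes within a group. In male TRAP the order was IA-2 (1032 CPM per kb), 7B2 (240.0), Pal2 (148), Phm (72.5), amon (64.0), Cadps (48.6), svr (36.7), Pal1 (8.42) and dimm (0.641). Ranges of neighbours overlapped between 7B2 and Pal2 and along the stretch Phm, amon, Cadps and svr. Female TRAP had the same order, with IA-2 at 1309, 7B2 at 238 and Pal2 at 145 CPM per kb, and overlaps between Phm and amon and between Cadps and svr. In male total mRNA IA-2 (371) was followed by Pal2 (71.9), 7B2 (68.9) and Phm (67.7), whose ranges overlapped in that order, then by Cadps, svr and amon (29.5, 28.1 and 26.1, overlapping), Pal1 (14.1) and dimm (0.243). In female total mRNA Phm (60.9) stood second after IA-2 (244), overlapping 7B2 (55.2), which overlapped Pal2 (54.0). Below them came svr (24), Cadps (19.5), Pal1 (19.4), amon (17.3) and dimm (0.183), with overlap along Cadps, Pal1 and amon.

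No sex difference in TRAP was called. Over the 8 genes, 62 exons were tested and 0 were called in either direction at FDR under 0.2 (edgeR exact test), beside 2.4% of all tested exons, and 0 had an unadjusted p under 0.05. The quasi-likelihood test and DESeq2 also called 0. Log2 fold changes of males over females in TRAP ranged from -0.15 to 0.78, with the largest in a Cadps exon. Lead exons were at 0.17 ± 0.16 for amon, 0.06 ± 0.18 for 7B2, 0.08 ± 0.17 for Pal2 and 0.26 ± 0.17 for Cadps. Without the expression filter 1 exon was called, the dimm lead exon, higher in male TRAP by 1.18 (edgeR FDR = 0.055), where the 4 male TRAP libraries had more CPM than the 4 female TRAP libraries.

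Total mRNA did differ between the sexes. Of 67 tested exons of all 9 genes, 14 were called higher in males, beside 9.61% of all tested exons, and 5 were called lower, beside 11.9%. Those higher in male total mRNA were 5 exons of IA-2, 4 of Pal2, 4 of Cadps and 1 of amon, each among the exons nearest the 3' end of its gene. The lead exon of Cadps had the smallest adjusted p, at 0.66 ± 0.15 (edgeR FDR = 0.00576), and its groups did not overlap. The amon lead exon differed by 0.66 ± 0.21 (FDR = 0.033), that of IA-2 by 0.67 ± 0.24 (FDR = 0.0497) and that of Pal2 by 0.47 ± 0.14 (FDR = 0.0584), each with overlapping groups. The IA-2 call was lost without female total mRNA replicate 2 (0.53), and the Pal2 call without male total mRNA replicate 2 (0.43) or female total mRNA replicate 3 (0.42).

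Exons lower in male total mRNA belonged to svr and Pal1. In svr they were X:504916-506242, specific to long transcripts, at -0.67 ± 0.20 (edgeR FDR = 0.0285), and X:506599-507806 at -0.48 ± 0.14 (FDR = 0.0497). In Pal1 they were 3 exons between -0.51 and -0.39, and the lead exon at -0.40 ± 0.16 (FDR = 0.167) lost its call without any of male total mRNA replicates 1, 3 and 4 or female total mRNA replicates 2, 3 and 4 (-0.29 to -0.44). The svr ratio of short to long end was higher in male than in female total mRNA by 0.69 on the log2 scale, with no overlap (exact permutation p = 0.0286, 0.114 adjusted over 28 tests). In TRAP it differed by -0.10 between males and females (exact permutation p = 0.771). The lead exon of 7B2 (0.38 ± 0.17, edgeR FDR = 0.21), that of Phm (0.21 ± 0.16, FDR = 0.525) and that of svr (0.29 ± 0.15, FDR = 0.343) were not called. The 7B2 value lay near the threshold and was called with the quasi-likelihood test (0.38), library totals (0.67, edgeR FDR = 0.00633), gene sums (0.34, FDR = 0.138) and the filter in every library (0.38, FDR = 0.196), and without male total mRNA replicate 3 (0.44) or 4 (0.49) or female total mRNA replicate 5 (0.48). Library totals also called Phm (0.50, FDR = 0.0213) and svr (0.57, FDR = 0.0111), and svr was called without male total mRNA replicate 1 (0.37).

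These counts were less stable than those of TRAP against total mRNA. The 14 exons higher in males became 29 without male total mRNA replicate 3, and 8 without male total mRNA replicate 2, female total mRNA replicate 2 or female total mRNA replicate 4. The 5 lower exons became 8 without male total mRNA replicate 1, 9 without male total mRNA replicate 4, 3 without male or female total mRNA replicate 3, and 2 without female total mRNA replicate 4. With library totals as the only scaling, which moved the median of all exons from 0.04 to 0.33, 42 were higher and 0 lower. Tissue markers moved with sex too, with 4 of 8 neuronal and 4 of 8 photoreceptor genes called higher in male total mRNA and 6 of 7 fat body and 5 of 7 muscle genes called lower. Glial genes were split, with 2 of 8 higher and 1 of 8 lower. Of all tested exons, 9.61% were called higher in male total mRNA and 11.9% lower. The summed fat body markers ranged from 1903 to 2341 CPM in male total mRNA and from 52962 to 70804 CPM in female total mRNA, mostly yolk protein genes, and their part in the member results was not tested.

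**Figure D5:**
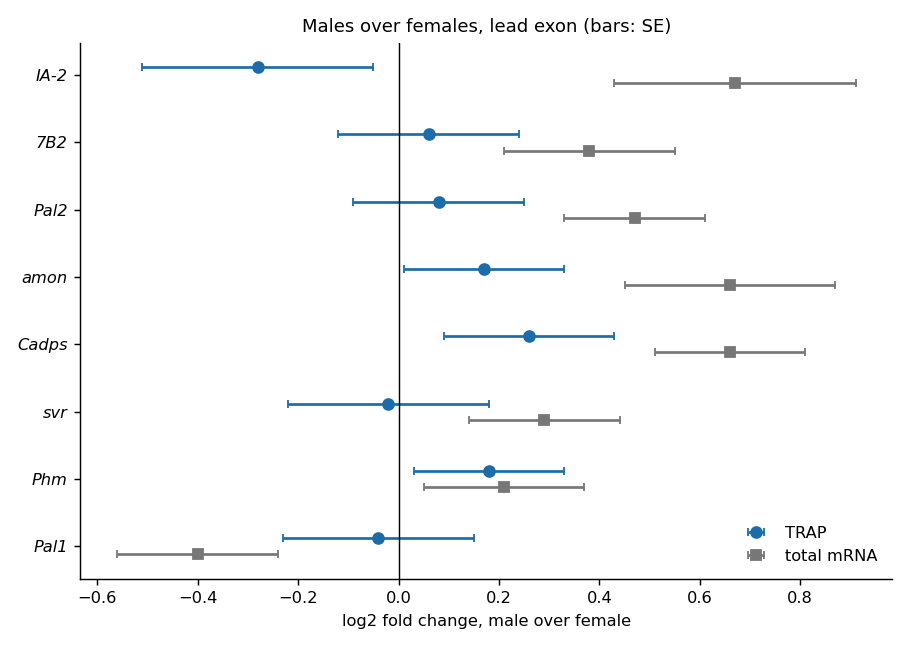
Log2 fold change of males over females (x axis) for the lead exon of 8 genes, in TRAP (circles) and in total mRNA (squares), with the SE as bars. In total mRNA IA-2, amon and Cadps lie near 0.66 and Pal1 at -0.40, while tested genes in TRAP lie between -0.04 and 0.26.

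Lead-exon enrichment was numerically larger in females than in males for every enriched gene, but the difference was not called for any. In a model of sex, fraction and their interaction over the 16 libraries, 0 of 56 tested exons of the 8 genes were called (edgeR quasi-likelihood test), beside 0.0607% of all exons, with 2 svr exons at an unadjusted p under 0.05. DESeq2 also called 0. The interaction, the male minus the female log2 fold change, was -0.48 for the amon lead exon (FDR = 0.565), -0.31 for 7B2 (FDR = 0.687), -0.38 for Pal2 (FDR = 0.593) and -0.39 for Cadps (FDR = 0.57). Its median was -0.31 over the member lead exons, -0.61 over general neuronal markers and -0.09 over all lead exons. The direction is therefore not particular to these genes. The sex and TRAP comparisons share libraries, so their values are not independent.

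Other genes of the peptide route were read from their lead exons. All 13 genes of dense-core vesicle making, transport and release were called higher in TRAP in both sexes, beside 38.3% of all lead exons in males and 52.1% in females. Their medians were 0.93 in males and 1.56 in females, against 0.14 and 0.33 over all lead exons. General neuronal markers had medians of 0.78 and 1.45, so the enrichment is not particular to this list. The largest changes were those of the synaptotagmin Sytbeta (1.99 in males, 2.38 in females), the vesicle GTPase Rab3 (1.67 and 2.20) and the vesicle kinesin unc-104 (1.63 and 2.42). Rab3 averaged 347 CPM in female TRAP, against 81.9 CPM in female total mRNA. No gene of this list was called between male and female TRAP (edgeR exact test), beside 2.4% of all tested exons. In total mRNA 6 of 13 were called higher in males than in females, as were 4 of 8 neuronal markers, beside 9.61% of all tested exons.

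Of 10 other peptide-processing genes, 2 rose and 6 fell in TRAP in males, while 4 rose and 5 fell in females, with medians of -0.40 and -0.11 against 0.14 and 0.33 over all lead exons. The shares of all lead exons called were 38.3% higher with 30.5% lower in male TRAP, and 52.1% higher with 31.3% lower in female TRAP. Higher in both sexes were the tyrosylprotein sulfotransferase Tpst (0.61 in males and 0.51 in females) and the copper chaperone Atox1 (0.34 and 0.25). In females isoQC rose most (0.61). The largest falls were those of the copper transporter Ctr1B (-1.95 and -2.15), the glutaminyl cyclase QC (-1.22 and -1.21) and the cytochrome b561 family gene nemy (-1.15 and -1.21). Between the sexes Tpst alone of this list was called, lower in males by -0.67 in TRAP (edgeR FDR = 0.0529) and by -0.87 in total mRNA (FDR = 0.0144). Of all tested exons, 2.4% were called in either direction in TRAP, and 11.9% were called lower in male total mRNA.

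Of 7 peptide-degrading ectoenzymes, 6 were tested in males, with 2 higher in TRAP beside 38.3% of all lead exons and 3 lower beside 30.5%. In females 5 were tested, with 2 higher beside 52.1% and 2 lower beside 31.3%. The neprilysins Nep1 (1.02 in males and 1.43 in females) and Nep3 (0.70 and 1.26) were higher in TRAP. Nep4 (-1.18 and -1.30) and the peptidyl dipeptidase Acer (-1.25 and -1.42) were lower in both sexes, and Ance was lower in males (-0.99). Nep5 lay below 1 CPM in all groups. No gene of the list was called between the sexes, beside 2.4% of all tested exons in TRAP. In total mRNA the shares of all tested exons were 9.61% higher and 11.9% lower in males.

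Across the 8 TRAP libraries, the genes whose lead exon varied most like that of IA-2, among 5247 with a mean of at least 10 CPM, were Tlk, dpr14 and beat-VI. Pearson's r of log2 values was 0.99 for each over 8 libraries of 2 sexes, a description across libraries that also differ in 3' weight. Among the members r with IA-2 was 0.54 for Pal2, 0.52 for 7B2 and for Phm, 0.40 for amon, 0.28 for svr and 0.01 for Cadps.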

How the data were processed

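The authors sequenced polyadenylated RNA of TRAP and total mRNA fractions from one end with a non-directional kit, aligned the reads with STAR 2.7.2a to dm6, and deposited featureCounts counts per exon entry, made without strand. A deposited RPM table was not used. An annotation of the same build held the intervals of all 112 member entries.

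Entries with CPM above 2 in at least 0.6 of the libraries compared were scaled by TMM. Differences were tested by edgeR's exact test (edgeR 4.0.16 under R 4.3.3), adjusted by Benjamini-Hochberg over all entries, and called at FDR under 0.2, the study's threshold. SEs came from quasi-likelihood fits, and the interaction from a quasi-likelihood test over 16 libraries. Normalised CPM used TMM factors over all 16 libraries. Ratios within a gene added 0.5 reads to each side and were tested by exact permutation. Limits cover counting error only. The steps were tested on simulated data.

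The genes, the lists (peptide processing, dense-core vesicles, ectoenzymes, and markers of neuronal, glial, photoreceptor, fat body and muscle cells) and the tests were chosen with earlier results of these data known. Named were the 9 genes, their lead exon, the highest and lowest exon per comparison, up to 3 called genes per list and direction, and the 3 genes most like IA-2. Other exons and the within-gene ratios were chosen after values were seen. Each comparison was repeated with a quasi-likelihood test, DESeq2 1.42.0, a replicate block, RLE factors, library totals, no filter or a stricter one, stricter calls, repeats collapsed, gene sums, and without each library. Same-numbered female TRAP and total mRNA libraries deviated together (correlations of 0.248 to 0.574 in 4 pairs), while same-numbered male libraries did not (-0.0158 to 0.226). However, female TRAP replicate 3 correlated more with female total mRNA replicate 2 (0.392) than with replicate 3 (0.248). The numbers were treated as pairs in females, which these correlations do not settle.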

Additional observations from a re-analysis of the deposited data

Results flagged for a closer look

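In 4 of the 36 sets of 4 libraries screened, 1 library lay far from the other 3 of its group. Chance flags about 1 in 20 such sets. The Pal1 lead exon reached 19.2 CPM in female total mRNA replicate 4. In male TRAP replicate 5, the lowest value was 125 CPM for the Pal2 lead exon and 162 CPM for the 7B2 lead exon, so both cases fall in the same library. The 7B2 lead exon reached 63.8 CPM in female total mRNA replicate 5. Without male TRAP replicate 5 the TRAP enrichment in males was 1.16 for Pal2 and 1.94 for 7B2 on the log2 scale.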

How the results depend on the processing

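Counts of calls in TRAP over total mRNA moved mainly with the call rule. Shares of all exons were taken under the main settings only, so the counts under other settings have no background beside them. Of exons higher in male TRAP (30), 18 passed FDR 0.05 and 8 passed FDR 0.2 with a 2-fold change, and leaving out 1 library gave 20 to 32. Of those lower in male TRAP (9), the counts were 5, 0 and 6 to 11, and 1 with library totals. In females the 2-fold rule left 10 higher and 2 lower, leaving out 1 library gave 23 to 27 and 13 to 17, and gene sums gave 2 lower genes. In total mRNA between the sexes, library totals gave 42 higher and 0 lower, FDR 0.05 gave 6 and 2, the 2-fold rule 0 and 0, and leaving out 1 library 8 to 29 and 2 to 9. Without the filter 1 exon was higher in male than female TRAP, and library totals gave 1 negative interaction. The cause was not tested for any of these.

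With the replicate block, female TRAP had 30 exons higher and 17 lower, and 8 exons were lower in male than female total mRNA. Between the sexes this block joins libraries of different flies that share only a number. Deviations of same-numbered male and female libraries correlated at -0.149 to 0.206 in TRAP and -0.274 to 0.0505 in total mRNA. Under this block the male over female TRAP values changed sign for amon (-0.003), Pal2 (-0.08) and 7B2 (-0.11), none called. The Phm interaction, blocked within each sex, was 0.16. The block changed no other direction of a lead exon. It called svr higher in male than female total mRNA (0.45, edgeR FDR = 0.104) and Phm higher in male TRAP (0.30, FDR = 0.116). Male libraries share only numbers, and the block gave 28 higher and 10 lower there.

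Gene sums, which count reads of overlapping entries more than once, reversed svr. For TRAP over total mRNA they gave -0.31 in females (edgeR FDR = 0.0429), a call in the opposite direction to its lead exon, and -0.03 in males. They gave svr 0.09 between the sexes in TRAP, -0.24 in total mRNA and 0.34 in the interaction. They also gave 0.10 for Pal1 in male over female TRAP and 0.10 for the Phm interaction. Library totals gave 0.08 for svr and 0.05 for Pal1 in male over female TRAP. Leaving out 1 library gave ranges that include 0 in male over female TRAP for svr (-0.21 to 0.10), Pal1 (-0.11 to 0.06), 7B2 (-0.01 to 0.20) and the svr end ratio (-0.24 to 0.17), for Phm in males (-0.01 to 0.24), and for the Phm interaction (-0.13 to 0.10). Depth limits dimm most, with 5 to 59 reads per library in its lead exon.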
